A study of Homo sapiens with 6 samples.

Results

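The multidrug resistance transporters described here were 7 genes of the ATP-binding cassette (ABC) family that have been tied to drug resistance in neuroblastoma: ABCB1, ABCC1, ABCC2, ABCC3, ABCC4, ABCC5 and ABCG2. They were taken by name from a fixed list, matched to gene identifiers through GENCODE release 29, and all 7 were found among the 58302 genes of the series. The 41 other ABC genes served as the comparison. Transcripts were measured by RNA-seq in SK-N-BE(2), an established human neuroblastoma line that carries many copies of MYCN. The 3 NC samples received a negative control small interfering RNA (siRNA), and the 3 siPrp19 samples received an siRNA against Prp19, a ubiquitin ligase of the spliceosome encoded by PRPF19. The labels give 72 h of transfection for every sample, whereas the methods of the study name a shorter time. All samples came from SK-N-BE(2), and no drug was added to any of them. The methods of the study name 3 biological replicates, whereas nothing in the labels says whether same-group samples came from separate cultures. The p-values therefore measure only the spread between these samples.

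ABC transporters are membrane pumps that bind and split ATP to move a substrate across a membrane. ABCB1 (P-glycoprotein), the ABCC proteins named here (multidrug resistance-associated proteins) and ABCG2 (breast cancer resistance protein) export chemotherapeutic agents or their conjugates, so that less of the agent stays in the cell. In neuroblastoma the ABCC1 gene is known for its link to MYCN amplification and treatment outcome, and MYC-family proteins are known to act on several ABC promoters.

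The promoters of members at different levels are shown first, since the members differed in level more than in their response to siPrp19. RefSeq windows (250 bases before to 50 bases after a gene start, GRCh38.p14) were matched for 5 of the 7 members, with 10 windows in all. ABCC1 and ABCC3 were not matched. The stretches printed run 5′ to 3′ on the gene's strand and stop before any exon of the gene in GENCODE release 29. They belong to ABCC5 (chr3:184018016-184018134, minus strand), ABCC4 (chr13:95301476-95301701, minus strand), ABCC2 (chr10:99782390-99782639, plus strand) and ABCG2 (chr4:88159025-88159159, minus strand, 1 of 5 windows). Capitals mark the GC box GGGCGG, the CCAAT box CCAAT, the E-box CACGTG and the TATA box TATAAA, each searched on both strands.
ABCC5: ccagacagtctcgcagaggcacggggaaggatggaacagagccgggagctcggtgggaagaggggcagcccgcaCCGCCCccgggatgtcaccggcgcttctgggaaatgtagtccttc
ABCC4: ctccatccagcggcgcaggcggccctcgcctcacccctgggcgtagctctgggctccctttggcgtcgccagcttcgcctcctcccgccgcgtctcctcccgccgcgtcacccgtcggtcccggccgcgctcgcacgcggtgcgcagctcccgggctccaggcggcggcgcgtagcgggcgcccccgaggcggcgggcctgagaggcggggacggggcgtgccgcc
ABCC2: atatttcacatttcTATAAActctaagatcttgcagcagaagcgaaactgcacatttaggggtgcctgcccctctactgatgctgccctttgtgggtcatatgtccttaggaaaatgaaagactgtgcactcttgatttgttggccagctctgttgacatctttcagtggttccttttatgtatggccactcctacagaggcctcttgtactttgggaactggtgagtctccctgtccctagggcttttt
ABCG2: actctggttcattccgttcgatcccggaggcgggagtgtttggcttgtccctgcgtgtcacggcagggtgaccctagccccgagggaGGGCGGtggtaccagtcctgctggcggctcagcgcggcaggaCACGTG

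Among all 35116 windows of this length, 45.0% held GGGCGG, 34.6% held CCAAT, 7.26% held CACGTG and 11.5% held TATAAA. The ABCC5 window held 1 GC box, in the stretch printed, and 1 TATA box beyond it. The ABCC4 window held none of the 4 motifs but 47 CG dinucleotides, more than 97.6% of all windows. The ABCC2 window held 1 TATA box and 1 CG dinucleotide. The printed ABCG2 window held 33 CG dinucleotides and 2 GC boxes and 1 E-box, of which 1 GC box and the E-box lie in the stretch printed. ABCB1 had 2 windows, 1 of which held 16 CG dinucleotides and 2 CCAAT boxes and the other 1 CG dinucleotide and none of the motifs. The ABCG2 windows not printed held 35, 33, 11 and 3 CG dinucleotides. Among the windows printed, which lack ABCC1 and ABCC3, CG content did not order the genes by transcript level. The printed, CG-rich ABCG2 window belonged to the member with the lowest level, described next.

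The level of each member was read in FPKM, fragments per kilobase of exon scaled to the sequencing depth, which divides by gene length. The length that gave whole reads for most genes was that of all annotated exons of a gene together. It ran from 5.04 kb for ABCG2 to 11.4 kb for ABCC5 and can exceed the length of the transcripts present. Ratios and shares between genes given below depend on these lengths. Reads on genes, recovered from the FPKM steps, ranged from 19058782 to 24181789 per sample. All 10 adrenergic neuroblastoma markers checked, among them HAND2, TH and DBH, had a mean of at least 1 FPKM, with summed levels of 2135 to 2252 FPKM in NC and 1986 to 2579 FPKM in siPrp19. All 5 immune and all 4 endothelial markers lay under 1 FPKM, with immune sums of 0.397 to 0.469 FPKM in NC and 0.177 to 0.259 FPKM in siPrp19 and endothelial sums of 0.566 to 0.849 and 0.465 to 0.680 FPKM. Of the 6 hepatocyte or epithelial markers, EPCAM alone reached 1 FPKM (sums of 2.38 to 2.75 in NC and 2.65 to 3.58 FPKM in siPrp19), and of the 9 mesenchymal or Schwann-like markers 7 did, with sums of 94.2 to 155 FPKM in NC and 85.0 to 127 FPKM in siPrp19. The knockdown was visible in PRPF19, at 53.1, 53.1 and 64.9 FPKM in NC replicates 1, 2 and 3, against 21.8, 28.5 and 33.6 FPKM after siPrp19. Every siPrp19 sample lay below every NC sample, with a log2 fold change of −1.04. Its adjusted p was 0.9999 in limma without a block, 0.19 in limma with a block for the replicate number, and 1.38e-11 in limma voom with that block.

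ABCC1 (MRP1), which exports drugs and glutathione conjugates, was the most abundant member. The gene (ENSG00000103222) lies on the plus strand at chr16:15949577-16143074, with coordinates of all members on GRCh38 from GENCODE release 29. Its level was 20.8, 19.3 and 20.7 FPKM in NC replicates 1, 2 and 3 and 19.6, 19.1 and 20.1 FPKM in siPrp19 replicates 1, 2 and 3. The groups overlapped, and the lowest and highest samples differed by 8.71% of the mean, the narrowest range among the 7 members. ABCC1 ranked 2304 among all genes by mean FPKM and 3 among the 48 ABC genes. It alone made up 50.8% to 57.7% of the summed FPKM of the 7 members, which was 33.6 to 39.9 FPKM per sample.

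ABCC5 (MRP5; ENSG00000114770, minus strand, chr3:183919934-184018015), an exporter of cyclic nucleotides and nucleotide analogues, came next. It had 8.20, 7.93 and 9.28 FPKM in NC replicates 1, 2 and 3, against 8.62, 7.90 and 9.40 FPKM after siPrp19. Replicate 3 was the highest and replicate 2 the lowest in both groups, and the groups overlapped. Together ABCC1 and ABCC5 held 74.7% to 80.7% of the members' summed FPKM.

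ABCC4 (MRP4; ENSG00000125257, minus strand, chr13:95019829-95301475), an exporter of cyclic nucleotides, prostaglandins and some camptothecins, had 3.80, 3.01 and 5.83 FPKM in NC replicates 1, 2 and 3. After siPrp19 it had 3.70, 2.52 and 5.16 FPKM. In both groups replicate 3 was the highest and replicate 2 the lowest, so that the groups overlapped almost wholly although each siPrp19 sample lay below the NC sample of its own number. ABCC3 (MRP3; ENSG00000108846, plus strand, chr17:50634777-50692252), known for exporting glucuronides and bile acids in liver and gut, had 2.28, 3.10 and 2.84 FPKM in NC and 1.93, 2.53 and 3.39 FPKM in siPrp19. Replicate 1 was the lowest in both groups, and the highest sample of all was siPrp19 replicate 3.

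ABCC2 and ABCB1 lay under the mean of 1 FPKM set for the test. ABCC2 (MRP2; ENSG00000023839, plus strand, chr10:99782640-99852594), the apical export pump of hepatocytes, had 0.530, 1.07 and 0.665 FPKM in NC and 0.530, 1.17 and 0.757 FPKM in siPrp19. Replicate 2 was the highest in both groups, where ABCC4 was lowest. ABCB1 (ENSG00000085563, minus strand, chr7:87503633-87713323), the drug efflux pump P-glycoprotein, had 0.419, 0.411 and 0.644 FPKM in NC and 0.614, 0.439 and 0.680 FPKM in siPrp19. These values rested on 53, 42 and 74 reads in NC and 81, 53 and 98 reads in siPrp19, and the groups overlapped. A count of 42 reads has an exact Poisson 95% interval of 30.3 to 56.8 reads, which covers counting error only.

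ABCG2 (ENSG00000118777, minus strand, chr4:88090264-88231322), a short transporter that works as a dimer and marks drug-effluxing side population cells, was listed at 0 in 5 of the 6 samples. NC replicate 2 held 1 read, or 0.0117 FPKM. The limit that a count of 0 allows, 3 reads, stood at 0.0240 to 0.0301 FPKM in the 5 samples at 0, so ABCG2 transcripts were at or under detection in both groups and no fold change was drawn from them.

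**Figure D1:**
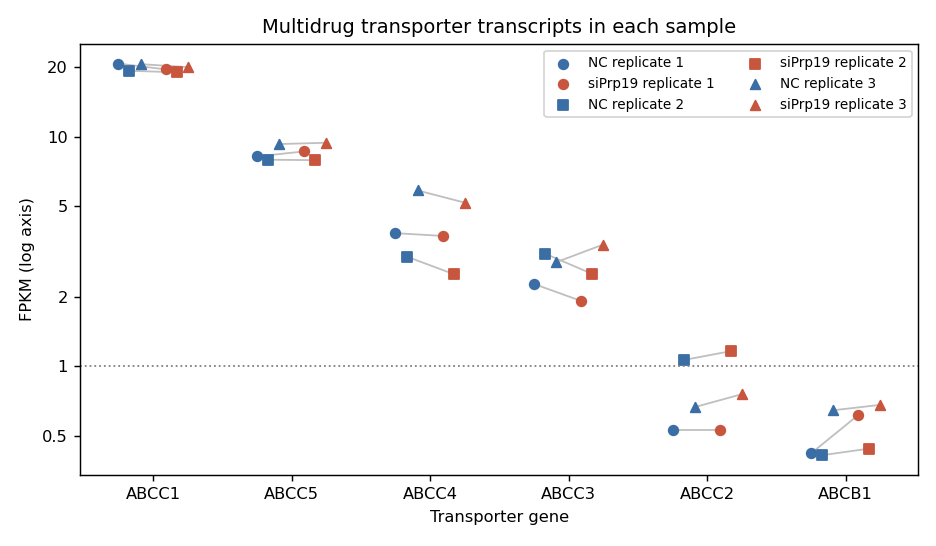
FPKM (log axis) of 6 multidrug transporter genes in each sample, with blue for NC, red for siPrp19, a marker shape for each replicate number and a grey line joining same-numbered samples. ABCC1 sits near 20 FPKM in all 6 samples and ABCC2 and ABCB1 lie mostly under the dotted line at 1 FPKM; ABCG2, with 1 read in all, is not drawn.

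The order of mean levels was ABCC1, ABCC5, ABCC4, ABCC3, ABCC2, ABCB1 and ABCG2. Neighbours were compared within samples by an exact two-sided sign-flip permutation test on log2(FPKM + 0.1) over the 6 samples, with Benjamini-Hochberg adjustment over the 6 neighbour pairs. ABCC1 exceeded ABCC5 2.33-fold in means and in 6 of 6 samples (exact p = 0.0312, the smallest that 6 samples allow, adjusted p = 0.0469). The same exact p was found for ABCC5 over ABCC4 (2.14-fold in means) and for ABCC3 over ABCC2 (3.41-fold), each in 6 of 6 samples. For these 3 steps the values did not overlap: the lowest sample was 19.1 FPKM for ABCC1, 7.90 for ABCC5 and 1.93 for ABCC3, against a highest of 9.40 for ABCC5, 5.83 for ABCC4 and 1.17 for ABCC2. ABCB1 over ABCG2 had the same p, but with ABCG2 at 0 reads in 5 samples that outcome was fixed and is no result. ABCC4 and ABCC3 were not separated, with ABCC4 higher in 4 of 6 samples (exact permutation adjusted p = 0.15). ABCC2 and ABCB1 were not separated either, with ABCC2 higher in 5 of 6 samples (exact permutation adjusted p = 0.156). Without the pair of ABCB1 and ABCG2, a choice made after seeing the data, the adjusted p of the 3 steps was 0.0521 (exact permutation). Same-numbered samples also varied together, and with the 3 replicate numbers as units the exact permutation test gave p = 0.25 for each of them, the smallest it can give, so these adjusted p-values do not carry the order.

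The siPrp19 samples were then compared with NC. Of the 7 members, 4 passed the filter of a mean of at least 1 FPKM (ABCC1, ABCC5, ABCC4 and ABCC3). None of the 4 was called by limma on log2(FPKM + 0.1) at an adjusted p under 0.05, against a background of 0% of the 14462 genes tested. At an unadjusted p under 0.05 the same test held 225 genes and none of the members. Adding the replicate block left the background at 0% (2265 genes had an unadjusted p under 0.05), whereas with limma voom on recovered reads and the block it was 7.01%, or 1012 genes, again with no member among them. The groups overlapped for all 7 members, while over the genes tested 5.61% had groups that did not overlap. ABCC2, ABCB1 and ABCG2 are not among the genes tested. With so few members, finding none is near both this share and the 7.01%, and is no result about the members.

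The sizes of these differences were small for the abundant members. ABCC1 had a log2 fold change (siPrp19 minus NC) of −0.05 with a 95% interval of −0.30 to 0.20, and with the block of −0.17 to 0.07. On the blocked fit this bounds the ABCC1 ratio between 0.890 and 1.05 (FPKM + 0.1 scale). ABCC5 had 0.03, with −0.28 to 0.33 without and −0.11 to 0.17 with the block, or a ratio of 0.927 to 1.12.

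The intervals were wider for the less abundant members. ABCC4 had a log2 fold change of −0.15, with −0.94 to 0.64 without the block and −0.35 to 0.05 with it (limma adjusted p = 0.9999 and 0.406). ABCC3 had −0.09, with −0.67 to 0.49 without and −0.44 to 0.26 with the block. Dropping single samples, in fits without the block, turned the sign of ABCC3, ABCC4 or ABCC5, as listed in the closing part. The same-numbered partner of the dropped sample stayed in, so the replicate numbers were not balanced between the groups in these fits. No direction is given to these members from group means. Fits without the filter gave 0.09 for ABCC2, with −0.86 to 1.05 without and −0.44 to 0.63 with the block, or a ratio of 0.736 to 1.55 in the latter. They gave 0.20 for ABCB1, with −0.64 to 1.05 without and −0.50 to 0.91 with the block, or a ratio of 0.705 to 1.88 in the latter.

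Within same-numbered pairs, ABCC4 changed by −0.04, −0.24 and −0.17 on the log2 scale in pairs 1, 2 and 3, and ABCC1 by −0.08, −0.02 and −0.04. Both were therefore lower in 3 of 3 pairs, a pattern that 21.3% of all genes tested shared, and 2 of 4 members is too few to set against that share. ABCC3 split, at −0.23, −0.28 and 0.25. ABCC5 changed by 0.07, −0.01 and 0.02.
ABCB1 changed by 0.46, 0.08 and 0.07 in pairs 1, 2 and 3, with most of its mean coming from pair 1. Exact two-sided permutation tests of 3 against 3 samples ignored the pairs and cannot go below p = 0.1. These permutation tests gave p = 0.3 for ABCC1, 0.4 for ABCB1, 0.7 for ABCC4 and 0.8 for ABCC2, ABCC3 and ABCC5. The median log2 fold change of the 4 members tested was −0.07, beside −0.0040 over all genes tested.

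**Figure D2:**
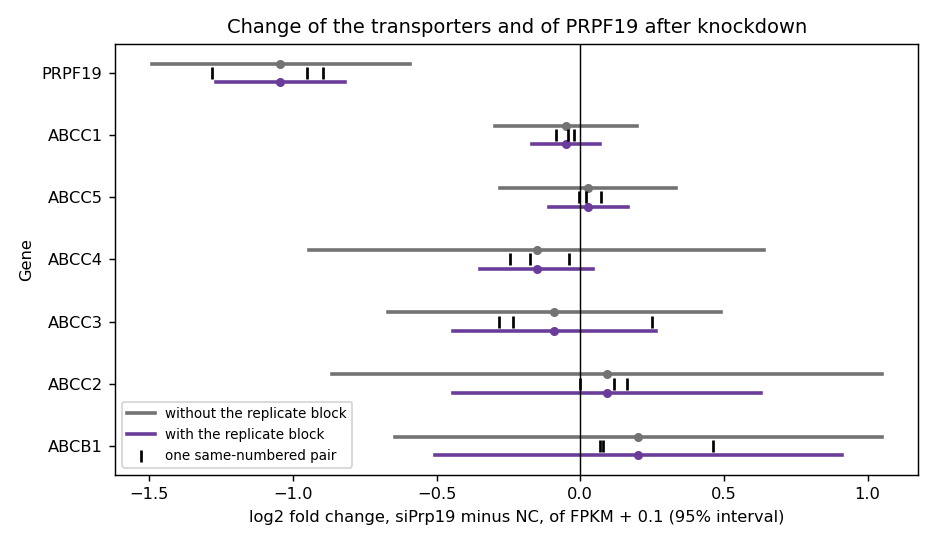
Log2 fold change (siPrp19 minus NC, FPKM + 0.1) of PRPF19 and 6 transporters, with bars for the limma 95% interval without (grey) and with (purple) the replicate block and black ticks for the same-numbered pairs. The ABCC1 interval with the block spans −0.17 to 0.07, while PRPF19 lies at −1.04; ABCC2 and ABCB1 come from fits without the filter on low values.

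For several members the samples differed more between replicate numbers than between the groups. The mean of NC and siPrp19 within a number spanned a 1.96-fold range over the 3 numbers for ABCC4 and a 1.93-fold range for ABCC2, on the FPKM + 0.1 scale. The ABCC4 range, 0.97 on the log2 scale, was wider than that of 85.9% of the genes tested, whose median was 0.46. The ABCC1 range, 0.08 on the log2 scale, was wider than that of only 2.81% of genes, and the ABCC5 range of 0.24 than that of 19.9%. Within pairs the log2 changes of ABCC4 had an SD of 0.11 (n = 3), and those of ABCC1 one of 0.03, beside a median of 0.13 over all genes. What sets the replicate numbers apart was not tested.

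**Figure D3:**
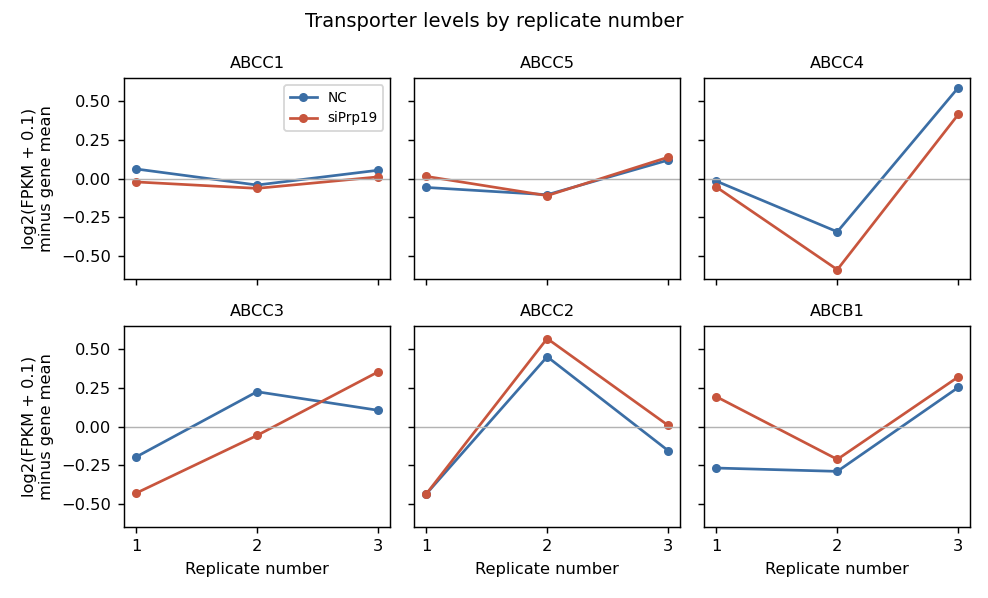
Log2(FPKM + 0.1) of 6 transporters minus the gene's mean over the 6 samples, against the replicate number, with blue for NC and red for siPrp19. The 2 lines of ABCC4 and of ABCC2 run together and in opposite senses, whereas ABCC1 stays within a range of 0.08 in its pair means.

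Genes with the pattern most like that of each tested member were taken as those with the smallest root mean square (RMS) difference of centred log2(FPKM + 0.1) over the 6 samples, which share their libraries and depth. Among them were KCTD20 (RMS 0.01) and CAPN2 (0.02) for ABCC1, PTK2 (0.02) and SPAST (0.02) for ABCC5, RXYLT1 (0.03) and PSMG1 (0.04) for ABCC4, and ATOH8 (0.06) for ABCC3. The median RMS difference to all 14461 other genes tested was 0.23 for ABCC1, 0.24 for ABCC5, 0.45 for ABCC4 and 0.34 for ABCC3. With 6 samples such likeness is a description only.

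Near copies and overlapping genes were checked for reads that could be shared. The paralog ABCB4 held 3.50% of the 31-base words of ABCB1 transcripts and had at most 0.0377 FPKM. ABCC6, a paralog of ABCC1, had 0.159 to 0.327 FPKM, ABCC11 at most 0.0612 FPKM, and ABCC12 was listed at 0 in every sample. Of the words of each other member, 0.181% (ABCC5) to 3.41% (ABCC4) occurred in transcripts of any other gene. Some of these genes were well expressed, among them, named after their values were seen, ATP5F1A (18.5 to 20.7 FPKM) and FAF1 (8.40 to 9.97 FPKM), with 0.441% and 0.497% of the words of ABCC4. PLAT (12.2 to 16.0 FPKM) held 0.383% of those of ABCC1, and ZNF562 (3.29 to 4.45 FPKM) and DENND6A (4.05 to 5.77 FPKM) held 0.352% and 0.289% of those of the low ABCC2. Whether reads of such stretches entered the members' values was not tested.
No gene annotated as overlapping a member shared an exon base with it. These genes were RUNDC3B (up to 0.430 FPKM) and HNRNPA1P9 (up to 0.120 FPKM) at ABCB1, RPL17P40 (0.0976 to 0.639 FPKM) at ABCC1, NANOGP6 (up to 0.227 FPKM) at ABCC2 and ABCC5-AS1 (0.196 to 1.19 FPKM) at ABCC5. The 5 genes overlapping ABCG2 (RNU6-1298P, RNU6-818P, RNU6ATAC31P, AC097484.1 and AC097484.2) were listed at 0.

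The other ABC genes gave the family background. Of these 41 genes, 19 passed the filter of 1 FPKM and 4 were listed at 0 in every sample. None was called in limma without or with the block (background 0%), or in limma voom with the block (background 7.01%). Their median log2 fold change was −0.0051, with 10 of 19 below 0. The highest levels belonged to ABCF1 (30.1 FPKM) and ABCE1 (22.8 FPKM), which act in translation and ribosome recycling and are not pumps, followed by ABCF2 (16.4 FPKM) and the lamellar body lipid transporter ABCA3 (16.2 FPKM). ABCC1 was thus below only ABCF1 and ABCE1 in the family.

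Among the higher fold changes of this group were those of ABCA3 (15.2 ± 2.30 in NC and 17.2 ± 3.93 FPKM in siPrp19, SD, n = 3, log2 fold change 0.16) and the lysosomal peptide transporter ABCB9 (0.16). The 3 lowest were those of the mitochondrial porphyrin-linked ABCB6 (3.55 ± 1.38 in NC and 2.92 ± 0.980 FPKM in siPrp19, SD, n = 3, −0.26), ABCB10 (−0.16) and ABCF2 (−0.08). These 5 genes had an adjusted p of 0.9999 in limma without the block, and between 0.285 and 0.571 with it.

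**Figure D4:**
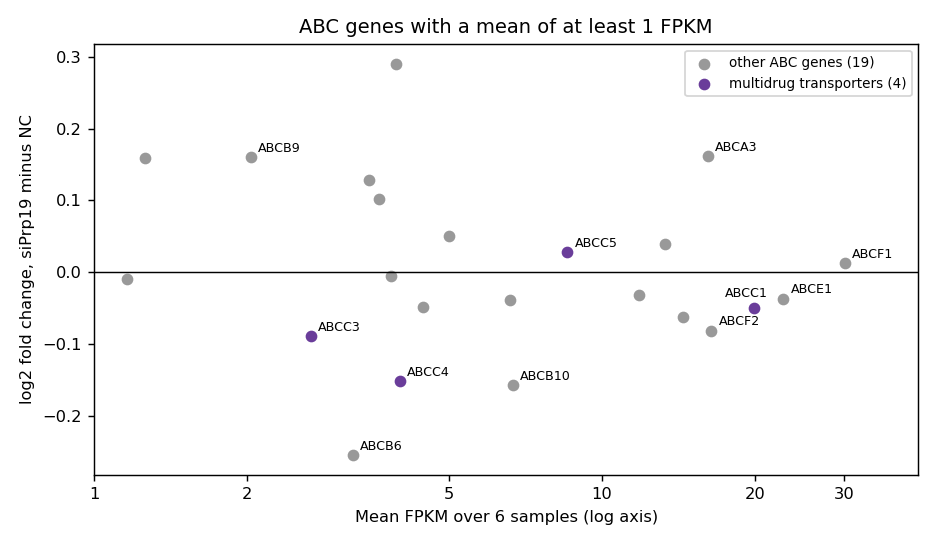
Mean FPKM over the 6 samples (log axis) against the log2 fold change (siPrp19 minus NC) for the ABC genes that passed the filter of 1 FPKM, 4 multidrug transporters in purple and 19 others in grey. The multidrug transporters span −0.15 to 0.03, between ABCB6 at −0.26 and ABCA3 at 0.16.

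Glutathione metabolism, which makes the conjugates that the ABCC pumps carry, was read from 22 listed genes, of which 18 were tested and none was called without the block (8 below 0, 10 above, median 0.03). GSTP1, the main glutathione transferase of many tumors (290 ± 34.3 FPKM in NC and 311 ± 42.2 in siPrp19, SD, n = 3), and the lipid peroxide reductase GPX4 (67.9 ± 2.15 and 72.0 ± 10.9 FPKM) were the most abundant. With limma voom and the block 1 gene rose and 1 fell, against the background of 7.01%. SLC7A11, the cystine importer that feeds glutathione synthesis, had 3.55, 6.03 and 9.45 FPKM in NC and 1.67, 4.48 and 6.67 FPKM in siPrp19 replicates 1, 2 and 3. It was lower in 3 of 3 pairs although the groups overlapped, with a log2 fold change of −0.61 in that fit (limma voom adjusted p = 2.68e-05, and 0.9999 in limma without and 0.204 with the block). GSTZ1 is a maleylacetoacetate isomerase of tyrosine breakdown. Its log2 fold change in that fit was 0.38 (limma voom adjusted p = 0.0139, and 0.9999 in limma without and 0.253 with the block).

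Of 22 transcription factors known to act on transporter genes, 17 were tested and none was called without the block (12 below 0, 5 above, median −0.07). MYCN was the most abundant, at 992 ± 161 FPKM in NC and 1040 ± 214 FPKM in siPrp19 (SD, n = 3), with overlapping groups. YBX1, a cold-shock protein known to bind the inverted CCAAT (Y-box) element of the ABCB1 promoter, had 806, 833 and 796 FPKM in NC and 658, 695 and 691 FPKM in siPrp19. Its groups did not overlap, and its log2 fold change was −0.25 (limma adjusted p = 0.9999 without and 0.19 with the block, limma voom with the block 0.000637).
HIF1A, the hypoxia-inducible factor, also fell in the limma voom fit with the block (−0.19, adjusted p = 0.0274, and 0.9999 in limma without and 0.238 with the block). These 2 of 17 were the only factors called there, a count too small to set apart from the background of 7.01%. ABCB1 itself was not tested in that fit and had the wide interval given above. The largest difference below 0 was that of MYC (−0.37, at 1.79 FPKM on average) and the largest above 0 that of RXRA (0.14), and neither was called in any of the 3 fits.

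Of 14 membrane anchors and chaperones of the transporters, 12 were tested, with 6 below 0, 6 above, a median of −0.02 and none called without the block. CANX (calnexin, 115 FPKM on average) and HSPA5 (BiP, the lumenal chaperone of the endoplasmic reticulum, 92.7 FPKM) were the most abundant. HSPA5 had 64.6, 93.1 and 137 FPKM in NC and 54.8, 85.4 and 121 FPKM in siPrp19, overlapping groups that differed by number far more than by siRNA. It fell in the limma voom fit with the block (−0.18, adjusted p = 0.0279, and 0.9999 in limma without and 0.211 with the block). HSPA5 was the only one of the 12 called there, beside the background of 7.01%. RAB11A had the largest difference above 0 (0.13).
Of 18 drug uptake transporters and related genes, 9 were tested, with 5 below 0, 4 above and a median of −0.02. None was called without the block or in limma voom with it (background 7.01%). The nucleoside transporter SLC29A1 (49.9 FPKM on average) and the copper importer SLC31A1, which also admits cisplatin (17.5 FPKM), were the most abundant. The copper pump ATP7A (−0.17) and the vault protein MVP (0.08) marked the ends of the range.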

How the data were processed

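RNA-seq of 3 NC and 3 siPrp19 samples was read from 1 table per sample. The authors deposited FPKM for 58302 Ensembl genes; the submitters' processing notes name HISAT2 2.0.5, featureCounts 1.5.0-p3 and build hg38, and the study used DESeq2 for its own test. Whether counting used strand is not given in the sources used here. GENCODE release 29 held 58039 identifiers. FPKM times exon length gave whole reads (within 0.05) in all 6 samples for 95.9% of the 37521 genes above 0; ABCC2 and ABCC4 were not among them. Recovered reads ranged from 19058782 to 24181789 per sample.

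The 14462 genes whose mean reached 1 FPKM were tested on log2(FPKM + 0.1), which understates changes of low genes, with limma 3.58.1 in R 4.3.3 (trend, Benjamini-Hochberg), after tests on simulated data. Limma voom used the recovered reads of 14432 genes. Permutation tests of 3 against 3 samples used scipy 1.17.1 under Python 3.11.15. The sign-flip tests went through every sign pattern directly in Python. For tables and plots numpy 2.4.6, pandas 2.3.3 and matplotlib 3.10.9 were used. Deviations from group means of same-numbered samples correlated across genes at 0.381, 0.568 and 0.639 for numbers 1, 2 and 3, so the label numbers were taken as pairs in the block. Alternatives were a pseudocount of 1, no filter, a filter of 5 FPKM, TPM, quantile normalization, the block, eBayes without trend and robust, voom, and each sample left out. The fits with a sample left out had no block. The block without the filter was chosen after seeing the data, as were 2 more tests of the order of levels.

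The members and lists were chosen with earlier results of these data known. Genes were named by rule: the members and PRPF19; of other ABC genes the 5 most abundant and the 3 highest and lowest fold changes; of the other lists the 2 most abundant, the highest and the lowest fold change; the 2 nearest patterns per tested member; overlapping genes and paralogs. Genes called only in voom with the block (SLC7A11, GSTZ1, YBX1, HIF1A, HSPA5) were added after their values were seen, where the rule had not named them. Some genes the rule named are not reported here.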

Additional observations from a re-analysis of the deposited data

How the results depend on the processing

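No member tested passed an adjusted p of 0.05 in limma without the block or in any of the 18 alternatives. ABCB1, ABCC2 and ABCG2 were tested only in the fits without the filter, and the filter of 5 FPKM left only ABCC1 and ABCC5. The lowest adjusted p was 0.28, for ABCC4 in voom with the block. Genes called over all tested numbered 0, and 0 with the replicate block alone; pairing in this way changed no other call except for the block together with a filter of 5 FPKM (124 genes) and voom with the block (1012 genes), in both of which PRPF19 passed (adjusted p = 0.0176 and 1.38e-11). eBayes without trend and robust called 1 gene. Each sample was left out in fits without the block, so the same-numbered partner of the dropped sample stayed in. These fits called 0 genes and 0 members in every case. In them the median log2 fold change of the 4 members ranged from −0.18 (without siPrp19 replicate 3) to 0.030 (without siPrp19 replicate 2 or NC replicate 3). Over the same omissions ABCC1 ranged from −0.08 to −0.03, ABCC3 from −0.29 to 0.10, ABCC4 from −0.40 to 0.10, ABCC5 from −0.034 to 0.095 and PRPF19 from −1.19 to −0.88. The sign turned for ABCC3 without NC replicate 2 (0.00094) or siPrp19 replicate 1 (0.10), for ABCC4 without NC replicate 3 (0.10) or siPrp19 replicate 2 (0.10), and for ABCC5 without NC replicate 2 (−0.02) or siPrp19 replicate 3 (−0.034). The cause was not tested. The order of levels held 4 neighbour pairs at an adjusted p under 0.05, 1 of them the pair of ABCB1 and ABCG2, whose outcome was fixed and is no result. The count was the same with a pseudocount of 1, TPM and quantile normalization. It was 0 without that pair and 0 with the replicate block (numbers as units), where fewer pairs or units limit p. Both of these checks were chosen after seeing the data. Depth limits ABCB1, ABCC2 and ABCG2 most.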
